A study of Bos taurus with 16 samples.

Results

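The antioxidant enzymes and the selenium step that serves them were followed through 10 genes in blood leukocytes (WBC) and uterine lining of dairy cows. The members were SOD1, SOD2, SOD3, CAT, GPX1, GPX3, GPX4, TXNRD1, SEPHS2 and HMOX1, and a probe belonged to a member when the gene name in the scanner files was that symbol and the spot was not a control. The rule found 27 probes for these 10 genes, out of 46615 probes and 26554 gene names on the array. SOD1, CAT and GPX3 had 4 probes each, GPX1 and SEPHS2 had 3, SOD2, SOD3, GPX4 and TXNRD1 had 2, and HMOX1 had 1. Multiparous Holstein cows without clinical disease gave the samples of these arrays at 45 to 55 days postpartum. Of these, 4 were healthy and 4 had subclinical endometritis (SCE), an inflammation of the uterine lining that only histology and cytology find. Where values are listed by cow, healthy cows stand in the order 841, 850, 877, 883, and SCE cows in the order 718, 833, 836, 846. Each cow gave 1 array of WBC, from stabilised jugular blood, and 1 array of a transcervical endometrial biopsy, so there were 4 groups of 4 arrays. No cow received a treatment, and the stage of the estrous cycle, which was not balanced between the groups, is not tied to single cows in the labels. By quantitative PCR in healthy endometrium, the study reported that CAT, SOD1 and SOD2 levels differed significantly between the follicular and luteal phases. The part of the stage in the differences below was not tested.

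Superoxide dismutases turn superoxide into hydrogen peroxide, in the cytosol (SOD1), the mitochondria (SOD2) or outside the cell (SOD3). Catalase (CAT) and the glutathione peroxidases (GPX1, the secreted GPX3 and the membrane lipid enzyme GPX4) remove peroxides, thioredoxin reductase (TXNRD1) restores reduced thioredoxin, and haem oxygenase (HMOX1) breaks down haem. GPX1, GPX3, GPX4 and TXNRD1 carry selenocysteine, whose selenium donor is made by selenophosphate synthetase (SEPHS2), itself a selenoprotein. In blood, neutrophils and monocytes produce superoxide through NADPH oxidase, and endometrial cells meet it when leukocytes enter the uterus.

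The probes are 60-base oligonucleotides. The pair of SEPHS2 probes that carried the clearest contrast between SCE and healthy cows overlap, with the shared 22 bases in capitals, and lie on the minus strand of chromosome 25 in the build named in the file headers, HGSC Btau 3.1. The first lies at chr25:28437395-28437454 and the second at chr25:28437357-28437416.
SEPHS2 A_73_P112281: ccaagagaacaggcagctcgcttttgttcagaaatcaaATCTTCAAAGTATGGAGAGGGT
SEPHS2 A_73_P032486: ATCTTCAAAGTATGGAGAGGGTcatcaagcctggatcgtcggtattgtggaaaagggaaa
They start at bases 1304 and 1342 of the transcript as the array annotation counts it and cover 98 bases together. The SEPHS2 reference probe, A_73_115153, starts at base 2132, and 730 bases separate it from the overlapping pair. For GPX1, a probe of each strand covers the same stretch, chr22:51685240-51685299 of that build, and these are shown because they allow a comparison of the strands. The capitals mark the first 12 bases of the plus-strand probe and their complement at the end of the other.
GPX1 A_73_P031771: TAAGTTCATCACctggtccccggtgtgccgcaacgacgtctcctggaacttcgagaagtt
GPX1 A_73_P098966: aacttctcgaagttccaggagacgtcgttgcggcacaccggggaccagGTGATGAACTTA
The second sequence was the reverse complement of the first at all 60 bases. The GPX1 reference probe lies on the plus strand as well, and whether the minus-strand probe measured GPX1 mRNA was not tested.

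All values below are log2 intensities of the median spot signal after quantile normalization. A member's reference probe is its brightest probe over the 16 arrays. Levels are compared within a probe only, since probes differ in how brightly they bind. Between 64.7% and 79.8% of the spots of an array were well above background. The endometrium array of SCE cow 833 stood apart. It had the lowest of these shares, and its median signal above local background was 79 scanner units, against 248 to 316 on the other 7 endometrium arrays. Its correlation with the 7 remaining arrays of that tissue had a median of 0.94, where the rest had 0.973 to 0.979. In its biopsy, the mean of 4 endothelium markers was 13.10, against 10.103 to 11.07 in the other cows, and the mean of 6 stroma markers was 12.92, against 13.53 to 14.56. WBC of the same cow had the lowest median correlation among the WBC arrays (0.972, against 0.984 to 0.989). The tissue labels were borne out by the averages of pan-leukocyte and stroma markers. Pan-leukocyte genes averaged 14.74 to 15.22 in WBC and 9.85 to 11.22 in endometrium, and stroma genes 9.20 to 9.58 and 12.92 to 14.56. Member results that rest on cow 833 are given with and without it.

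**Figure D1:**
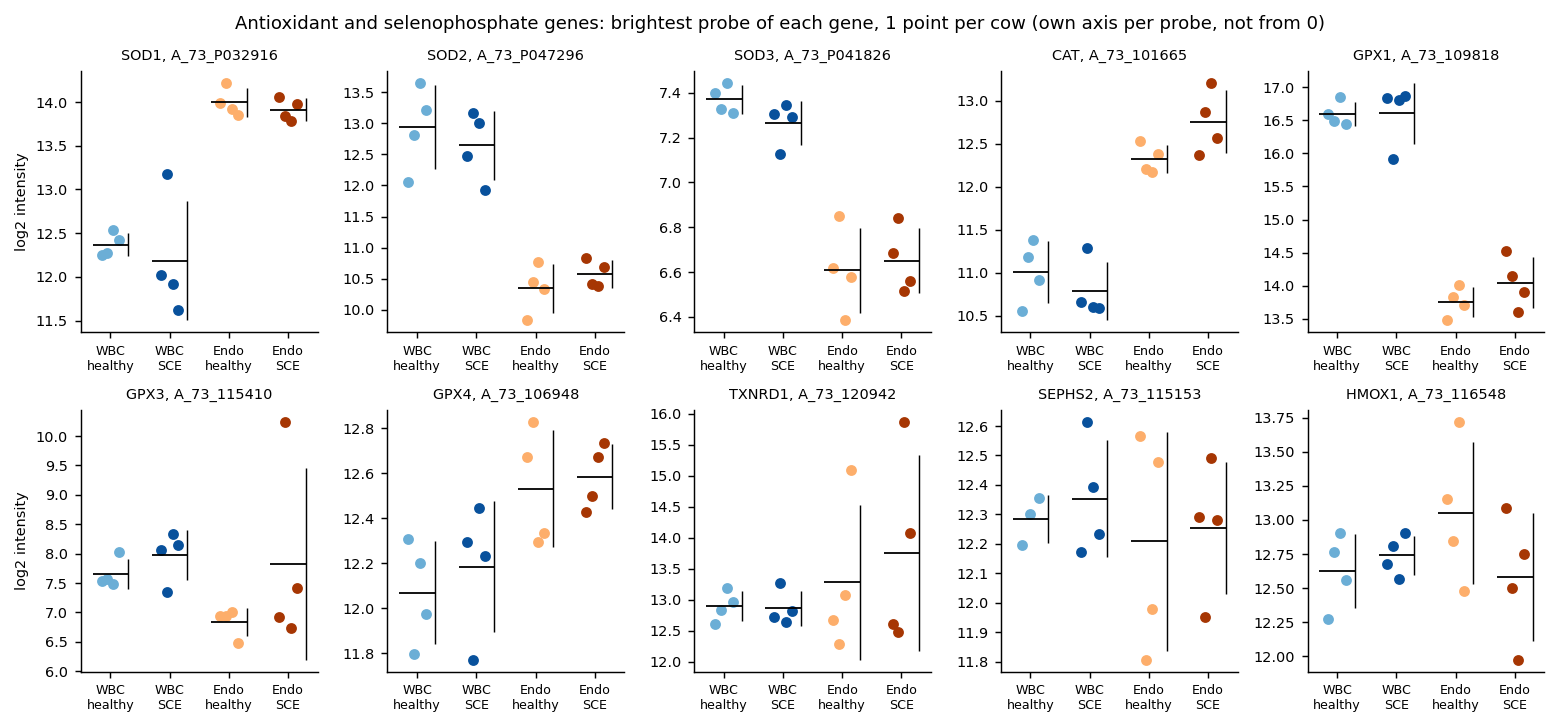
Log2 intensity (vertical axes, a separate axis per probe, not starting at 0) of the reference probe of each of the 10 genes, with 1 point per cow, the mean as a horizontal line and 1 standard deviation on each side as a vertical line. Healthy and SCE points overlap in every panel, while SOD1, SOD2, SOD3, CAT and GPX1 separate WBC from endometrium; the SEPHS2 panel has 3 healthy WBC points because 1 spot was marked as an outlier.

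The first comparison asked whether these genes differed between SCE and healthy cows. Among endometrium samples, none of the 27 probes passed TREAT, limma's test against a 1.2-fold change, either unadjusted or after Benjamini-Hochberg adjustment over all probes, and the smallest unadjusted p of a member was 0.197. Over all 46598 probes tested there, 0.453% passed unadjusted and 0% adjusted. In WBC, 2 of 27 probes passed unadjusted TREAT, both of SEPHS2 and both higher in SCE cows, and 0 passed after adjustment. Over all WBC probes, 0.122% passed unadjusted, with 0.0815% of all probes higher in SCE, and 0% passed adjusted. The members' differences (SCE minus healthy) had a median of 0.14 in the endometrium, with 21 of 27 above 0, where all probes had a median near 0 (-0.0046). Without cow 833 the members' median was 0.11 with 19 above 0, and without cow 836 it was 0.09 with 18 above 0, alternatives chosen after the values were seen. Markers of other cells also lay off 0 there. All 8 neutrophil genes were above 0 (median 0.27), as were 6 of 7 T cell genes (median 0.36) and 4 of 4 endothelium genes (median 0.41), and 0 of 6 stroma genes (median -0.43). The remaining marker lists had medians from 0.07 (erythroid, 7 of 11 genes above 0) to 0.21 (B cell, 3 of 3), and no marker gene passed adjusted TREAT. S100A8, a neutrophil calcium-binding protein, was higher in each SCE cow than in any healthy cow (difference 1.60, standard error 0.61, adjusted p = 1). It alone of the marker genes passed unadjusted TREAT there, and 1.63% of all probes had endometrial groups that did not overlap. The part of these cells in the members' values was not tested. In WBC the median was -0.0065 for the members and -0.0066 for all probes, with 13 members above 0. Marker medians in WBC ran from -0.21 (erythroid, 4 of 11 genes above 0) to 0.25 (monocyte and macrophage, 6 of 8). CSF1R of the latter list (0.64, standard error 0.17) alone passed unadjusted TREAT, and its groups did not overlap. Groups were apart with SCE higher for 0.581% of all WBC probes. In a larger set of cows, the study counted more leukocytes, lymphoid cells and monocytes in SCE blood. The part of these cells in the WBC values was not tested. Probes of 1 gene are not independent, and 4 cows a group limit the precision. With bulk samples, fewer cells of a type and less RNA per cell cannot be told apart.

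**Figure D2:**
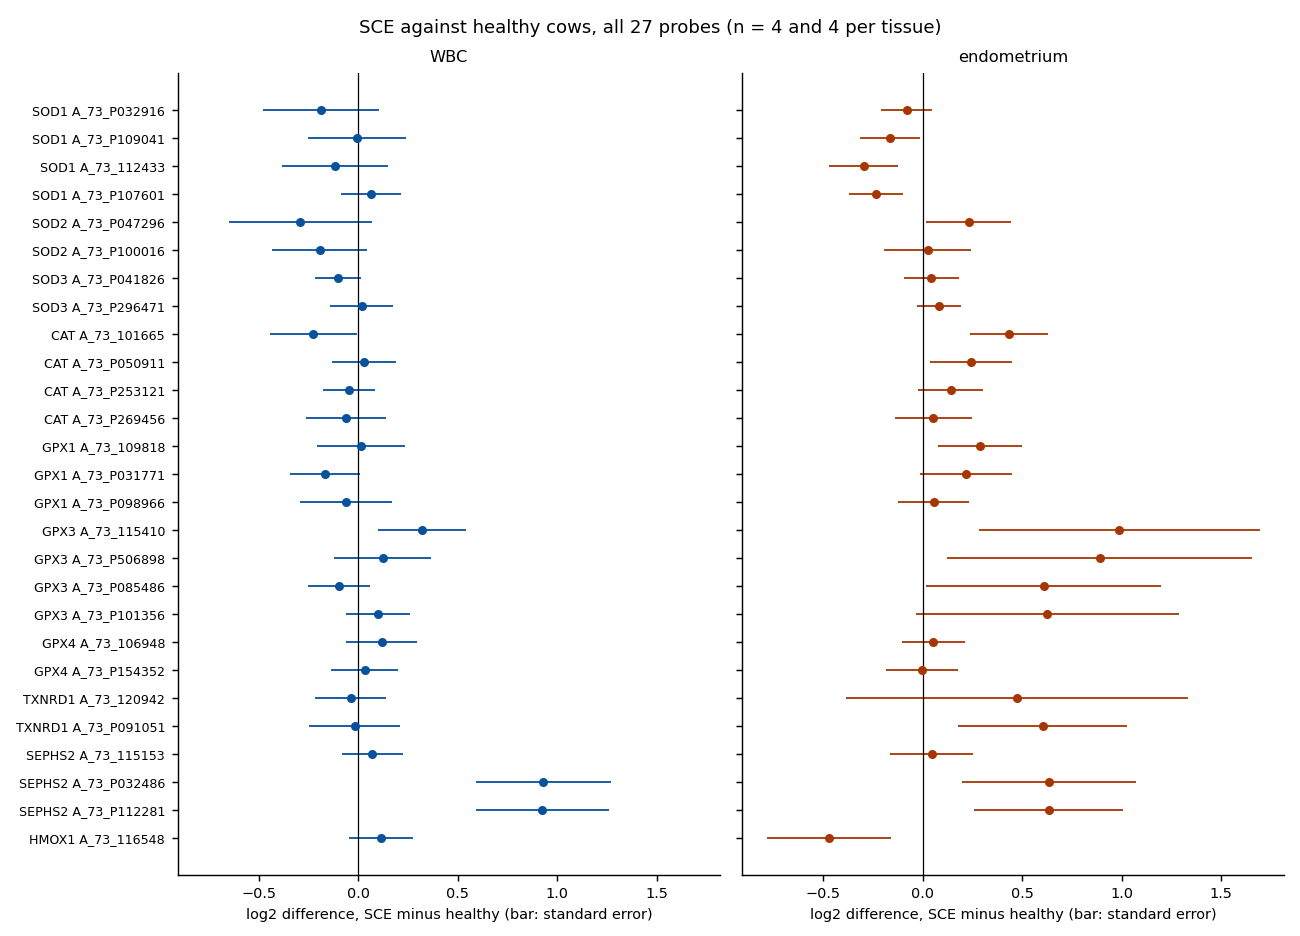
Log2 difference between SCE and healthy cows (horizontal axis, positive where SCE is higher) for all 27 probes in WBC (left) and endometrium (right), each point being the limma estimate and the bar 1 standard error. In WBC the overlapping SEPHS2 probes lie near 0.93 while the third SEPHS2 probe lies at 0.07, and in the endometrium the widest bars belong to GPX3 and TXNRD1.

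SEPHS2 gave the largest difference of the 10 genes in WBC, and its probes differed from each other. With probe A_73_P032486, healthy WBC were at 10.95, 10.70, 11.12 and 10.77, and SCE WBC at 11.17, 12.22, 12.74 and 11.13. The groups did not overlap, but cows 718 and 846 lay just above the highest healthy cow, while cows 833 and 836 stood 1.05 or more above all others. SCE WBC were 1.90-fold higher by this probe (log2 difference 0.93, standard error 0.34), past unadjusted TREAT and with an adjusted p = 1. The exact two-sided permutation test gave p = 0.029, the smallest that 4 against 4 allow. Of all WBC probes, 1.3% had groups that did not overlap, and 0.581% did so with SCE higher. With the overlapping probe A_73_P112281, healthy WBC lay between 9.91 and 10.17, and SCE WBC were at 10.30, 11.38, 11.96 and 10.37, a difference of 0.93 (standard error 0.34, adjusted p = 1), and the exact permutation test again gave p = 0.029. These probes share bases, so the second is not a separate measurement.

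The reference probe A_73_115153, nearer the 3′ end, showed no such contrast. It read 12.19, 12.30 and 12.36 in WBC of healthy cows 841, 850 and 883, the spot of cow 877 being left out as an outlier, and 12.17, 12.61, 12.39 and 12.23 in WBC of SCE cows. The groups overlapped and the difference was 0.07 (standard error 0.15, exact permutation test p = 0.657). After the tissue means were removed, the pair of overlapping probes correlated at 0.98 over the 16 arrays, and the reference probe correlated with them at 0.40 and 0.44.

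In the endometrium the same cows were high. Probe A_73_P032486 read 10.94 in cow 833 and 11.33 in cow 836, and 9.23 to 10.01 in the other 6 cows, SCE cows 718 (9.58) and 846 (9.50) included. With probe A_73_P112281, cows 833 and 836 were at 9.82 and 10.54 and the other 6 cows between 8.54 and 9.14. As 2 of the 4 SCE cows lay among the healthy ones, the endometrial groups overlapped, and the differences of 0.64 (standard error 0.44, exact permutation test p = 0.314) and 0.63 (standard error 0.38, exact permutation test p = 0.229) did not pass. Without cow 836 these endometrial differences were 0.30 and 0.30, and without cow 833 they were 0.44 and 0.54. The same 2 cows were thus the high ones in both tissues. Without cow 836 the WBC difference of A_73_P032486 was 0.62 (standard error 0.27), and without cow 833 it was 0.79 (standard error 0.35), neither past unadjusted TREAT. Cows 833 and 836 were hybridised in different rows of the slide. Within the first row the WBC difference of this probe was 0.87 and within the second 0.99, but with the row as a block it no longer passed unadjusted TREAT.

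**Figure D3:**
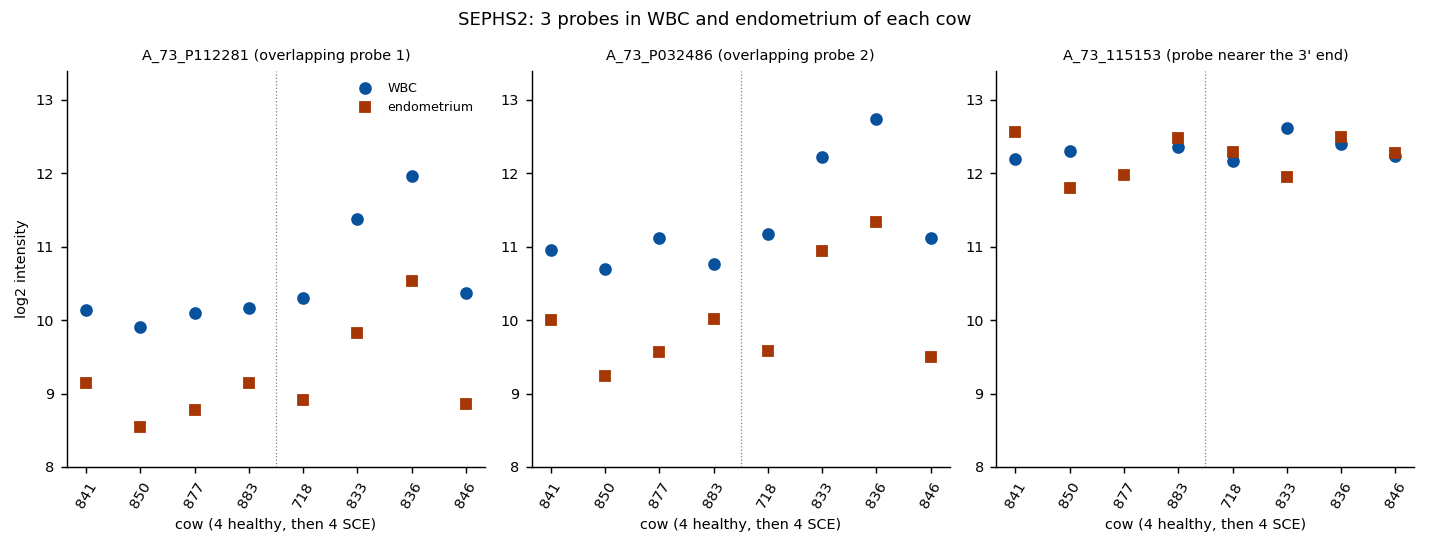
Log2 intensity (vertical axis) of the 3 SEPHS2 probes in WBC (circles) and endometrium (squares) of each cow (horizontal axis, healthy cows left of the dotted line and SCE cows right of it). Cows 833 and 836 stand above the other 6 in both tissues with the overlapping probes (12.22 and 12.74 against at most 11.17 in WBC with A_73_P032486), and not with A_73_115153, where the WBC spot of cow 877 is missing.

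The pattern was uncommon on the array only when a wide gap was asked for. Among 23893 probes well above background on all 16 arrays, 826 had the same 2 cows highest in WBC and in endometrium. How many would do so by chance was not computed. With the added condition that these cows exceeded the other 6 by at least 0.5 in both tissues, 8 probes remained, 0.0335% of the probes. The SEPHS2 pair made up 2 of the 8 and had the widest gaps in WBC, 1.05 and 1.003, with gaps of 0.93 and 0.68 in the endometrium. These probes share bases and stand for 1 gene. No other probe on the list had cows 833 and 836 as its pair. This count, with its gap of 0.5, was made after the SEPHS2 values had been seen, so it is a description only.

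TXNRD1 varied widely between cows in the endometrium. Its reference probe A_73_120942 read 12.68, 12.28, 13.08 and 15.09 in healthy endometrium and 12.60, 12.48, 15.87 and 14.08 in SCE endometrium. Healthy cow 883 and SCE cows 836 and 846 were high, so the groups overlapped, and the difference of 0.47 had a standard error of 0.86 (exact permutation test p = 0.629). With this probe all 8 WBC values lay between 12.62 and 13.27. The second probe, A_73_P091051, was also high in the endometrium of cows 883 (8.71) and 836 (9.38), but it read 9.17 in cow 833, which was low with the reference probe, and 7.56 to 8.26 in the other 5 cows. In WBC it ran from 8.15 in cow 833 to 9.40 in cow 846, so its WBC values were not as close together. SCE endometrium was 0.60 higher with it (standard error 0.43, exact permutation test p = 0.229). Without cow 836 the difference of the reference probe turned to -0.23 (standard error 0.71). Epithelium markers averaged 12.13 in cow 883, 12.24 in cow 836 and 11.21 in cow 846, within the range of the other cows (10.57 to 12.10) or just above it; their part in the TXNRD1 values was not tested.

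GPX3 was high in 1 biopsy. The reference probe A_73_115410, well above background on all 16 arrays, read 6.95, 6.93, 7.001 and 6.48 in healthy endometrium and 6.93, 10.24, 6.73 and 7.41 in SCE endometrium. The other 3 GPX3 probes were dim, each well above background in at most 3 of the 4 arrays of any group. Cow 833 was high with the other probes too, at 9.69, 8.66 and 8.97, where the remaining cows lay between 5.79 and 6.51. The endometrial difference of the reference probe, 0.99 (standard error 0.71, exact permutation test p = 0.286), became 0.18 (standard error 0.20) without that cow. The endothelium markers that were high in this biopsy were all 4 well above background, and its neutrophil markers averaged 8.41, against 6.86 to 7.64 in the other cows, with 5 of 8 above background. Their part in the GPX3 values was not tested. In WBC the GPX3 reference probe lay between 7.35 and 8.33, cow 833 being lowest, and the SCE difference was 0.32 (standard error 0.22, exact permutation test p = 0.314).

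**Figure D4:**
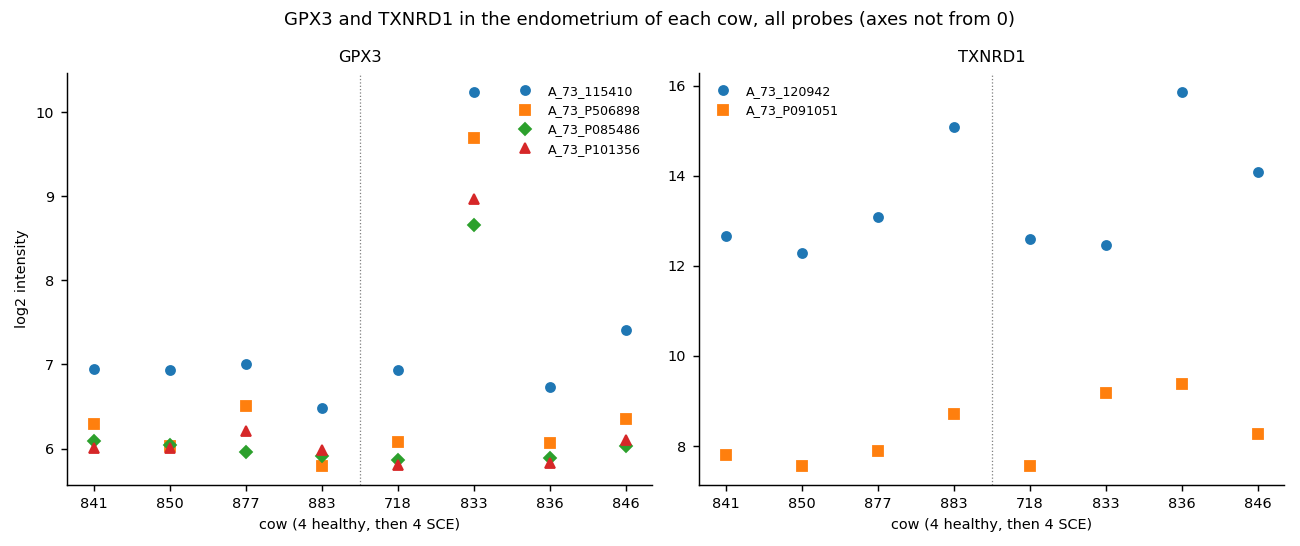
Log2 intensity (vertical axes, not starting at 0) of the 4 GPX3 probes (left) and the 2 TXNRD1 probes (right) in the endometrium of each cow (horizontal axis, healthy cows left of the dotted line). All GPX3 probes are high in SCE cow 833 alone, up to 10.24, while the TXNRD1 reference probe is high in healthy cow 883 and SCE cows 836 and 846 (15.09, 15.87 and 14.08).

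Catalase had the smallest TREAT p of the reference probes in the endometrium, without passing. With its reference probe A_73_101665, healthy endometrium was at 12.53, 12.21, 12.17 and 12.38 and SCE endometrium at 12.37, 12.87, 13.21 and 12.57. The groups overlapped at cow 718 alone, and the difference was 0.43 (standard error 0.20, exact permutation test p = 0.0857). Without cow 836 it was 0.28. The other CAT probes gave 0.24, 0.14 and 0.05. In WBC the reference probe differed by -0.23 (standard error 0.22, exact permutation test p = 0.4). CAT also had the lowest TREAT p of any member when the SCE difference was compared between tissues, 0.66 higher in endometrium than in WBC (standard error 0.31, adjusted p = 1). None of the 27 probes passed that comparison, unadjusted or adjusted, where 0.496% of all probes passed unadjusted.

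The superoxide dismutases differed little between SCE and healthy cows. SOD1 was lower in SCE endometrium with all 4 probes, by 0.08, 0.16, 0.30 and 0.24 on the log2 scale, none past TREAT. In WBC, SOD1 was highest in SCE cow 833 with every probe, at 13.17 with the reference probe A_73_P032916, where the other SCE cows were at 11.62 to 12.02 and the healthy cows at 12.25 to 12.54. The WBC difference of that probe was -0.19 (exact permutation test p = 0.657), and without cow 833 it was -0.52 (standard error 0.15), not past unadjusted TREAT. Without that cow the other SOD1 probes differed by -0.25, -0.42 and -0.06 in WBC, none past unadjusted TREAT. For the same cow, GPX1 and GPX4 in WBC were the lowest of all 8 cows with 3 and 2 probes (GPX1 reference probe 15.92, against 16.44 to 16.87). The 3 include the minus-strand GPX1 probe. SOD2 differed by 0.23 in endometrium and -0.29 in WBC with its reference probe (standard errors 0.21 and 0.36). SOD3 differed by 0.04 and -0.10, and its second probe, A_73_P296471, was well above background on none of the 16 arrays.

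GPX1, GPX4 and HMOX1 also stayed within the spread of the cows. The GPX1 reference probe differed by 0.29 in endometrium (standard error 0.21) and 0.01 in WBC (standard error 0.22). GPX4, which protects membrane lipids, differed by 0.05 and 0.12 (standard errors 0.16 and 0.18). HMOX1 had the most negative difference of any member in the endometrium. Healthy endometrium was at 13.15, 12.85, 13.72 and 12.48 and SCE endometrium at 13.09, 12.50, 11.97 and 12.75, overlapping groups with a difference of -0.47 (standard error 0.31, exact permutation test p = 0.229). When each cow was left out in turn, the HMOX1 difference ran from -0.66 to -0.25, the latter without cow 877, and it was -0.27 without cow 836. In WBC all 8 cows lay between 12.27 and 12.90.

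The second comparison set endometrium against WBC of the same cows. Each tissue was hybridised on a slide of its own, and the effects of tissue and slide cannot be told apart. Of the 27 member probes, 14 passed TREAT after adjustment, 6 higher in endometrium (SOD1 and CAT) and 8 higher in WBC (SOD2, SOD3, GPX1 and SEPHS2). The 8 include the minus-strand GPX1 probe A_73_P098966. Over all probes 53.9% passed, 22.7% higher in endometrium and 31.2% higher in WBC, so the members' share was close to that of the array. Counted by gene, 6 of the 10 members passed, against 61.3% of all genes. Over all probes the median difference (endometrium minus WBC) was -0.16. It was 0.35 when arrays were quantile-normalized within each tissue and -0.40 with the scanner's processed signal. Of the probes called, 42% were higher in endometrium, and 79.2% with normalization within each tissue. SOD1, SOD2, CAT and GPX1 kept their direction and passed under both normalizations.

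GPX1 was the member most clearly higher in WBC on several probes. Its reference probe A_73_109818 read 16.59, 16.49, 16.86 and 16.44 in WBC of healthy cows and 16.84, 15.92, 16.81 and 16.87 in WBC of SCE cows. In endometrium it read 13.47, 13.83, 14.00 and 13.71 in healthy and 14.52, 14.14, 13.60 and 13.91 in SCE cows. WBC exceeded endometrium in 8 of 8 cows, 6.51-fold (log2 difference -2.70, standard error 0.16, TREAT adjusted p = 1.47e-09, exact sign-flip test p = 0.00781, the smallest that 8 cows allow). The plus-strand probe A_73_P031771 differed by -2.75. Its reverse complement, the minus-strand probe A_73_P098966, differed by -2.46 and read 6.92 to 10.06 over the 16 arrays. What the minus-strand probe measured was not tested.

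SOD2, the mitochondrial dismutase, had the widest tissue difference on 1 probe. With A_73_P100016, WBC lay between 11.90 and 13.13 and endometrium between 8.69 and 9.61, a difference of -3.20 (standard error 0.17, 9.21-fold higher in WBC, TREAT adjusted p = 3.39e-10). The reference probe differed by -2.33, or 5.02-fold, in 8 of 8 cows. SEPHS2 was higher in WBC with the overlapping probes, by 2.52-fold and 2.51-fold in 8 of 8 cows (differences -1.33 and -1.33, TREAT adjusted p = 0.0031 and 0.00165), and not with its reference probe (-0.09, standard error 0.13). This call depended on the scaling. With normalization within each tissue the overlapping probes differed by -0.41 and -0.37 and no longer passed (TREAT adjusted p = 0.504 and 0.551), while the reference probe passed in the other direction (0.64, TREAT adjusted p = 0.0119). SOD3 was 1.61-fold higher in WBC with its reference probe, which lay between 6.38 and 7.45 on all arrays (difference -0.69, TREAT adjusted p = 0.00027). With normalization within each tissue the SOD3 difference was 0.01, the only one of the 14 called probes to change its sign.

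**Figure D5:**
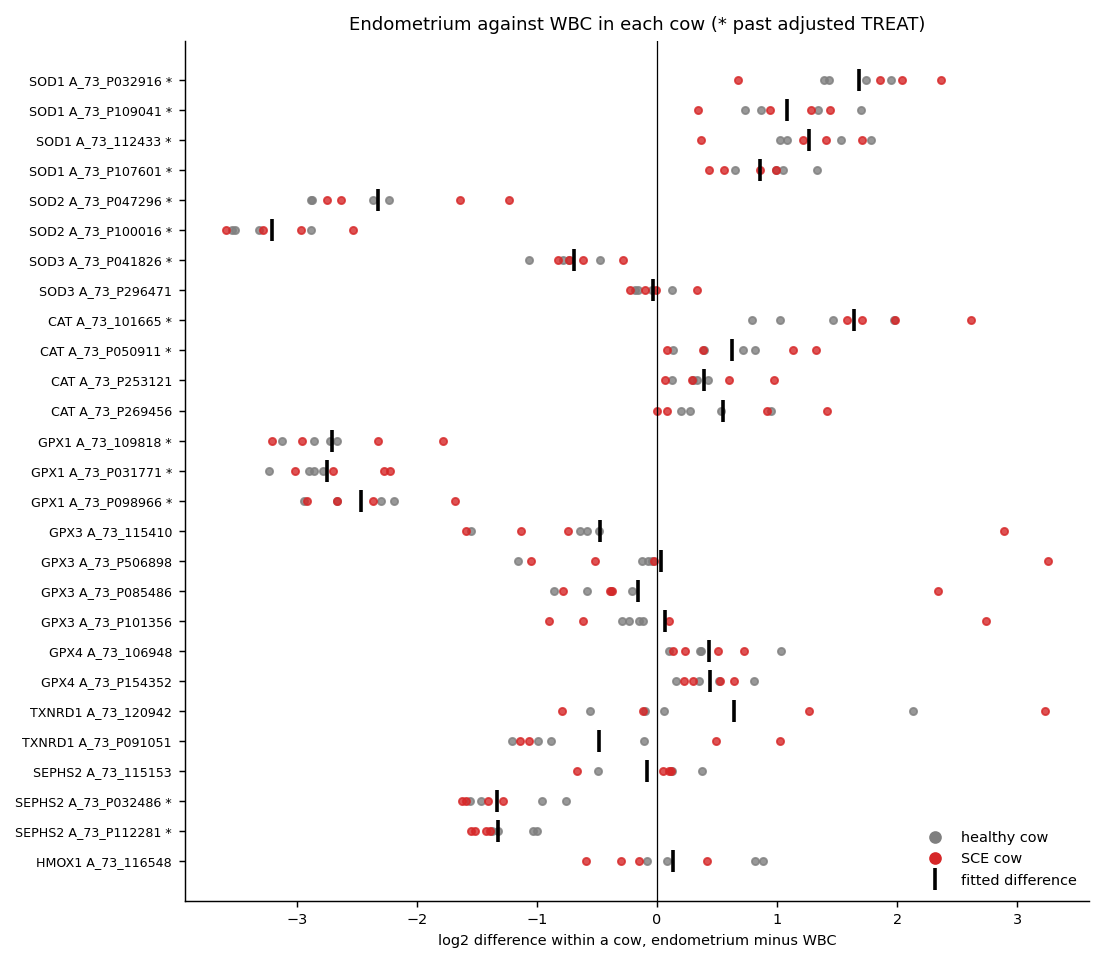
Log2 difference between endometrium and WBC of the same cow (horizontal axis, positive where endometrium is higher) for all 27 probes, with healthy cows in grey, SCE cows in red, the fitted difference as a black tick and an asterisk where adjusted TREAT passed. SOD1 and CAT lie right of 0 in every cow, GPX1, SOD2 and the overlapping SEPHS2 probes left of 0 in every cow, and the GPX3 points far to the right belong to SCE cow 833.

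SOD1 and CAT were higher in endometrium. The SOD1 reference probe lay between 13.78 and 14.22 in endometrium and between 11.62 and 13.17 in WBC, 3.20-fold higher in endometrium in 8 of 8 cows (difference 1.68, standard error 0.17, TREAT adjusted p = 1.75e-06). The other SOD1 probes differed by 1.08, 1.26 and 0.86, and all 4 passed after adjustment. CAT was 3.12-fold higher in endometrium with its reference probe (difference 1.64, standard error 0.15, TREAT adjusted p = 7.12e-07), which read 12.17 to 13.21 there and 10.55 to 11.38 in WBC. A second CAT probe, A_73_P050911, passed with 0.62 (TREAT adjusted p = 0.0173), and the pair that covers most of the same bases did not, at 0.39 and 0.55 (TREAT adjusted p = 0.194 and 0.0648). Without cow 833, A_73_P050911 no longer passed (0.55, TREAT adjusted p = 0.0502) and A_73_P269456 did (0.64, TREAT adjusted p = 0.0196). The 4 CAT probes thus agreed on the direction in 8 of 8 cows and differed in size.

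The remaining members did not pass between tissues. GPX4 was higher in endometrium in 8 of 8 cows with both probes (0.43 and 0.44, TREAT adjusted p = 0.158 and 0.152). Its reference probe passed when the 1.2-fold threshold was dropped, and with normalization within each tissue GPX4 (1.14), TXNRD1 (1.22) and HMOX1 (0.76) passed with their reference probes. In the shared normalization TXNRD1 differed by 0.64 with its reference probe and by -0.48 with the other, and HMOX1 by 0.13, which turned to -0.34 with the processed signal. For the GPX3 reference probe WBC were higher in 7 of 8 cows, and the exception was cow 833. Its difference of -0.48 (standard error 0.39) became -0.985 without that cow (standard error 0.13, TREAT adjusted p = 0.000148).

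Neutrophil markers, 8 genes in all, averaged 12.77 to 13.42 in WBC and 6.86 to 8.41 in endometrium, and all 8 were well above background in WBC against 4 to 7 in endometrium. The stroma average ran the other way, as given above, with 4 of 6 genes higher in endometrium after adjustment and 1 higher in WBC. Epithelium genes were split, 3 of 6 higher in endometrium and 3 in WBC. Erythroid markers, 11 genes including haemoglobins, averaged 8.68 to 9.68 in WBC and 6.82 to 7.52 in endometrium, with 6 to 9 and 2 to 5 above background. The averages of these lists differed between the tissues, while the members differed in both directions. The part of these cells in the members' tissue differences was not tested.

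Other genes of the pathways were read from 9 lists, each gene by its brightest probe. None of the 114 genes passed adjusted TREAT between SCE and healthy endometrium, nor any of 115 in WBC, where the count by unadjusted TREAT was 0 as well. Unadjusted, 2 of 114 passed in the endometrium, against 0.497% of all genes read the same way (0.121% in WBC). LRP8, a receptor that takes up selenoprotein P, read 7.26, 7.22, 7.26 and 7.43 in healthy endometrium and 6.62, 6.32, 6.53 and 6.96 in SCE endometrium. It was lower in each SCE cow than in any healthy cow (difference -0.69, standard error 0.15, exact permutation test p = 0.0286, adjusted p = 1). These values are dim, and LRP8 was well above background on all healthy endometrium arrays but on only 3 of 4 SCE ones. The lowest value, 6.32, was that of cow 833. When each cow was left out in turn, cow 833 included, the LRP8 difference ran from -0.80 to -0.59. TALDO1, the transaldolase of the pentose phosphate pathway, read 12.74, 12.43, 12.60 and 12.99 in healthy and 13.32, 13.57, 13.13 and 13.12 in SCE endometrium (difference 0.60, standard error 0.16, exact permutation test p = 0.0286, adjusted p = 1). Endometrial groups did not overlap for 1.63% of all probes. The LRP8 difference in endometrium minus that in WBC was -0.72 (standard error 0.24, adjusted p = 1), past unadjusted TREAT, with WBC of both groups lying between 6.79 and 7.58.

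Between tissues, 36 of the 114 genes were higher in endometrium and 35 in WBC after adjustment, with a median difference of 0.06. Of all genes read by their brightest probe, 23.9% were higher in endometrium and 31.5% in WBC, with a median of -0.15, so many genes of any list differ between these tissues. With normalization within each tissue, 18 of the 35 genes higher in WBC no longer passed and 4 of them changed sign, while all 36 higher in endometrium still passed. Median differences were below that of all genes for superoxide sources (-1.22), NADPH supply (-1.48) and selenoprotein synthesis (-0.98), and ran from 0.21 for NRF2 and haem genes to 0.62 for glutathione genes in the other lists. In the list of superoxide sources, 9 of 15 were higher in WBC and 0 in endometrium, led by the NADPH oxidase subunits NCF4 (56.6-fold) and CYBB (33.0-fold, well above background on 7 of 8 endometrium arrays). Normalization within each tissue left 7 of the 9, without NOX1 and XDH. Of the genes that supply NADPH, 6 of 9 were higher in WBC, among them TKT (4.40-fold) and TALDO1 (3.43-fold) of the pentose phosphate pathway, and 2 were higher in endometrium, IDH1 (4.29-fold) and ME1 (7.61-fold, although well above background on only 3 of 8 WBC arrays).

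In the machinery that makes selenoproteins, 5 of 8 genes were higher in WBC and 0 in endometrium. SARS, the seryl-tRNA synthetase, was 5.47-fold higher, SECISBP2, which binds the selenocysteine insertion element, 3.59-fold, the selenocysteine lyase SCLY 2.71-fold and the elongation factor EEFSEC 2.37-fold. SEPHS1, a paralog of SEPHS2, was 1.63-fold higher in WBC, and normalization within each tissue turned its difference to 0.23. Under that normalization EEFSEC and SCLY no longer passed either, so 2 of 8 genes, SARS and SECISBP2, remained higher in WBC. Selenoproteins themselves were split, with 8 of 16 higher in endometrium and 4 in WBC. SEPP1, the plasma carrier of selenium, was 24.0-fold higher in endometrium (16.34 in healthy and 16.12 in SCE cows, against 11.33 and 11.97 in WBC), and SEP15 6.86-fold. SEPX1, a methionine sulfoxide reductase, and SELO were higher in WBC by 2.97-fold and 2.40-fold. DIO3 was also called higher in WBC, but no group had it well above background. SELO, EPT1 and DIO3 no longer passed with normalization within each tissue.

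Of the other superoxide and peroxide enzymes, 5 of 13 were higher in endometrium and 0 in WBC, among them MSRB3 (means of 10.53 in healthy and 10.69 in SCE endometrium, against 6.12 and 6.30 in WBC, where it was well above background on 1 of 8 arrays) and GPX8, not well above background in WBC, at least 71.5-fold higher. Thioredoxin and glutaredoxin genes divided into 6 of 12 higher in endometrium, such as TXN (4.75-fold) and TXNDC17 (8.70-fold), and 3 higher in WBC, including GLRX (3.83-fold) and SRXN1 (3.29-fold). The third, TXNRD2, no longer passed with normalization within each tissue. For glutathione synthesis and transfer, 10 of 20 were higher in endometrium, with GSTM3 25.1-fold and GSTT1 7.88-fold higher, and 5 in WBC, with GSTM1 2.32-fold and the glutamate-cysteine ligase subunit GCLC 1.98-fold higher. GCLC was well above background on 5 of 8 endometrium arrays. With normalization within each tissue none of the 5 (GCLC, GSS, GSR, GSTM1 and CHAC1) passed, and GSS, GSR and CHAC1 changed sign.

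In the list of NRF2 and haem genes, 3 of 16 were higher in endometrium and 2 in WBC. NQO1, a quinone reductase, averaged 11.25 in healthy and 10.92 in SCE endometrium, and 6.03 and 6.41 in WBC, where it was well above background on 1 of 8 arrays. MAFF was 6.24-fold higher in endometrium. BACH1, a repressor of HMOX1, and MAFG were higher in WBC, by 4.96-fold and 3.02-fold, MAFG not with normalization within each tissue. Of 5 metallothioneins, MT1E (2.43-fold) and MT1A (1.95-fold) were higher in endometrium and MT3 (1.98-fold) in WBC, the last not with normalization within each tissue.

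Genes whose pattern was most like SEPHS2 were sought in WBC among 28356 probes well above background on all 8 arrays. Over the 7 WBC arrays with a value for the reference probe, the highest Pearson correlations were those of AKAP9 (0.997), TC426062 (0.995), DV779261 (0.994), IFRD1 (0.992) and CD2AP (0.991). None of these passed TREAT between SCE and healthy WBC, with differences of 0.10, 0.21, 0.44, 0.26 and 0.04. With probe A_73_P032486 over all 16 arrays after the tissue means were removed, an alternative chosen after the values were seen, the highest were UHRF1BP1L (0.91), LIN7C (0.85), XPA (0.85), APLP2 (0.81) and MTUS1 (0.81). The arrays share slide and normalization, and the correlations are descriptions of these arrays.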

How the data were processed

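RNA of WBC and endometrium from the same 8 cows was measured on 16 one-colour 60-mer arrays. Spot intensity values came from Agilent Feature Extraction 10.10.1.1, per the submitters' processing notes, and the authors deposited them without normalization, beside quantile-normalized intensities. The labels gave tissue, status and cow. From the deposited median intensities, 1319 control spots and outlier spots (190 to 465 per array) were left out, log2 values were quantile-normalized over 16 arrays without background correction, and spots of a probe were averaged. No filter on dim probes was applied.

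Contrasts were tested in limma 3.58.1 (R 4.3.3) with lmFit and treat at 1.2-fold, within a tissue on 8 arrays, and between tissues on 16 arrays in 1 fit of 4 groups, with Benjamini-Hochberg adjustment over all probes at 0.05. Figures were drawn with Python 3.11.15, pandas 2.3.3 and matplotlib 3.10.9. Intensities carry no counting depth. The number of arrays limits precision, and each group compared held 4 cows.

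In simulated data with 46615 probes, a small set of probes was changed and the noise was normal and independent between probes. Single far cows were not simulated, and recovery after adjustment depends on how many probes change. A log2 change of 1 was recovered unadjusted for 91% of changed probes in WBC and 82% in endometrium, and after adjustment for 16% and 0%. A log2 change of 2 was recovered after adjustment for 89.5% and 79.5%. The members, the lists and the rules for naming genes were chosen with earlier results of these data known. All members are named, with the probes the results turn on, and of the lists, genes past unadjusted TREAT in either tissue and the leading 2 each way between tissues, or all of a count up to 5. The lists were superoxide and peroxide enzymes, thioredoxin and glutaredoxin, glutathione, NRF2 and haem, selenoproteins, selenoprotein synthesis, NADPH supply, superoxide sources and metallothioneins. Assigning probes through RefSeq gave the same 27 probes. Both arrays of a cow came from 1 animal and are paired. Over 23893 probes, deviations of a cow's arrays from their group means correlated at 0.07, 0.14, 0.04 and 0.12 in healthy cows 841, 850, 877 and 883 and at -0.14, -0.33, 0.04 and -0.05 in SCE cows 718, 833, 836 and 846.

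Alternatives were quantile normalization per tissue, normexp with an offset of 50, the scanner's processed signal minus the 75th percentile, the authors' normalized intensities, averaging over a gene's probes, leaving out dim probes, no fold threshold, a trended robust prior, slide row as a block, all 16 arrays in 1 fit, cow as a block and leaving out each cow.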

Additional observations from a re-analysis of the deposited data

Results flagged for a closer look

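Within groups of 4 arrays, 11 of 115 groups of member, LRP8 and TALDO1 values held a cow whose gap to the nearest other cow took more of the group's range than Dixon's test allows, which chance passes in about 1 of 20 groups. In WBC of SCE cows, cow 833 was the highest for SOD1 (A_73_P107601, 11.95, next 11.51) and CAT (A_73_101665, 11.29, next 10.66), and the lowest for GPX1 (A_73_109818, 15.92, next 16.81) and GPX4 (A_73_P154352, 10.68, next 11.28). In SCE endometrium the same cow was the highest for the GPX3 probes A_73_P506898 (9.69, next 6.35), A_73_P085486 (8.66, next 6.03) and A_73_P101356 (8.97, next 6.10). Cow 846 was the lowest of the SCE WBC for the SOD3 probe A_73_P296471 (5.51, next 5.83), which was not well above background on any array. Among healthy cows, cow 883 was the highest in WBC (8.03, next 7.58) and the lowest in endometrium (6.48, next 6.93) for the GPX3 reference probe A_73_115410, and cow 877 was the highest in endometrium for the GPX3 probe A_73_P101356 (6.20, next 6.01), where that probe was not well above background.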

How the results depend on the processing

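The count of member genes with a probe past unadjusted TREAT in WBC was 1 (SEPHS2), and it was 0 with the processed signal scaled to the 75th percentile, with the slide row as a block and with all 16 arrays in 1 fit. When each cow was left out in turn it ranged from 0 to 1, and was 0 without 833, 836, 841, 850 or 883. The adjusted counts between SCE and healthy cows were 0 in both tissues under every alternative run. Between tissues, 6 member genes passed, 6 to 7 when a cow was left out (GPX3 was added without cow 833). With the cow as a replicate block, 6 member genes passed between tissues and 0 differed in their SCE effect, so the pairing moved no count. That last count was 0 unadjusted and 0 to 1 when a cow was left out (CAT without cow 841). Over the alternatives, 722 differences of single probes kept their direction and side of the threshold, 31 no longer passed, 7 newly passed, 5 moved by more than the spread and 36 changed sign. Normalization within each tissue turned the tissue differences of the reference probes of SOD3 (from -0.69 to 0.0056), GPX3 (to 0.305), SEPHS2 (to 0.64) and LRP8 (to 0.48), and of TXNRD1 probe A_73_P091051 (to 0.45). With the processed signal, the SCE differences of SOD1 in endometrium (0.0065), GPX1 in WBC (-0.049) and the SEPHS2 reference probe in WBC (-0.025) changed sign, as did the tissue difference of HMOX1 (-0.34). With the authors' normalized values the SEPHS2 reference probe differed by 0.15 between tissues, and with the mean of a gene's probes GPX1 differed by -0.073 in WBC. When each cow was left out, reference-probe SCE differences crossed 0 for SOD1 (-0.52 to 0.0007), GPX1 (-0.073 to 0.24), TXNRD1 (-0.17 to 0.056), SEPHS2 (-0.019 to 0.13), HMOX1 (-0.0029 to 0.21) and LRP8 (-0.092 to 0.17) in WBC, and for SOD3 (-0.031 to 0.12), GPX4 (-0.027 to 0.15), TXNRD1 (-0.23 to 1.08) and SEPHS2 (-0.089 to 0.16) in endometrium. The SCE difference of TXNRD1 probe A_73_P091051 in WBC (-0.23 to 0.19) and the tissue difference of the SEPHS2 reference probe (-0.17 to 0.0057) did too. None of these passed as first computed, except SOD3 between tissues. Normalization within each tissue moved the share of called probes that were higher in endometrium from 42% to 79.2%, and the number of member genes called to 8, with GPX4, TXNRD1 and HMOX1 added, SOD3 lost and SEPHS2 called through another probe in the opposite direction. Signs of GSS, GSR, CHAC1 and SEPHS1 turned too. The causes were not tested. The 4 cows a group, the dim GPX3 and SOD3 probes and the unmatched estrous stage limit what these arrays can show.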
